A study of Mus musculus with 11 samples.

Results

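The genes of DNA replication and S phase were followed across 4 groups of mouse T cells cultured into Th1-type effectors. The set holds 59 genes, chosen by name for their roles in licensing, firing and copying of DNA and in the supply of nucleotides and chromatin for it. The choice was made with earlier results of these data known. The deposited table of 16673 probe sets held a probe set of 53 of them, and each of the 53 had 1 probe set. Pcna, Rfc2, Rpa3, Lig1, Rrm2 and E2f3 were not analysed here. Of the 53 genes, 14 belong to origin licensing, 8 to helicase activation, 9 to the polymerases and primase, 7 to the clamp loader and lagging strand group, 4 to nucleotide supply, 4 to chromatin copying, 5 to the cyclin E and E2F group and 2 to fork protection.

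All 4 groups came from naive (CD44-low) spleen T cells, put into Th1 cultures with irradiated (2500 rad) T-depleted C57BL/6 splenocytes as presenting cells. The cultures held antibodies to CD3 (1 µg/ml), CD28 (3 µg/ml) and IL-4 (10 µg/ml), together with IL-2 (50 U/ml) and IL-12 (10 ng/ml), and the cells were sorted on day 4. Wild-type cells gave a CD4+CD8- group (3 arrays) and a CD4-CD8+ group (2 arrays, called wild-type CD8 cells). CD4 T cells of Thpokf/f CD2cre mice, in which Cre driven by CD2 deletes the floxed gene of the transcription factor Thpok, gave a CD4+CD8- group (3 arrays) and a CD4+CD8+ group (3 arrays). The replicates stem from 2 distinct preparations and the labels do not tie arrays to preparations, so the p-values may measure partly technical spread. Both Thpok-deficient groups carry the same alleles and were sorted out of the same kind of culture.

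An activated T cell divides rapidly, and each division needs a complete copy of its genome. In G1 the origin recognition complex, Cdc6 and Cdt1 load the Mcm helicase onto origins, and in S phase kinases, Cdc45, Mcm10 and the GINS complex turn that helicase on. Polymerase alpha with primase starts each strand, polymerases epsilon and delta extend the leading and lagging strands, and E2F factors, freed when cyclin-dependent kinases phosphorylate the retinoblastoma protein, drive the transcription of many of these genes. The comparisons ask how the mRNAs of this machinery differ between wild-type CD4 effectors and the groups that lack Thpok or are of the CD8 lineage.

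Thpok's own gene, Zbtb7b, read 8.70, 8.55 and 8.03 (log2 signal) in wild-type CD4+CD8- cells and 6.30 to 7.23 on the arrays of the other groups. T cell markers were high on every array, with a mean of the 5 measured between 10.09 and 11.03, and the measured markers of erythroid (2) and NK cells (1) lay within the range of 719 olfactory receptor probe sets. Of 5 B cell and 5 myeloid markers, Cd79b, Cd68 and Itgam had a mean above the 95th percentile of those receptors and the rest did not. The B cell marker mean was 4.40 to 5.35 in wild-type CD4+CD8-, 4.40 to 4.68 in Thpok-deficient CD4+CD8-, 4.67 to 5.33 in Thpok-deficient CD4+CD8+ and 4.84 to 4.95 in wild-type CD8 cells, and the myeloid mean was 4.85 to 5.45 over all arrays. Of the 5 B cell markers, 1, 3 and 1 were higher in Thpok-deficient CD4+CD8-, Thpok-deficient CD4+CD8+ and wild-type CD8 cells than in wild-type CD4+CD8- cells. The counts were also 1, 3 and 1 for the 5 myeloid markers. Itgam went against the replication genes, with a mean of 6.16 in wild-type CD4+CD8- cells and of 5.38, 5.70 and 5.84 in the other groups. Cd68 and Cd79b differed in the same direction as the replication genes. Cd68, a lysosomal protein abundant in macrophages, read 7.05 to 7.37 in wild-type CD4+CD8- cells and 7.49 to 8.71 on all other arrays, with differences of 1.03, 1.09 and 1.22 for Thpok-deficient CD4+CD8-, Thpok-deficient CD4+CD8+ and wild-type CD8 cells that did not pass by limma (adjusted p = 0.264, 0.248 and 0.199). Cd79b, of the B cell receptor, had a mean of 4.99 in wild-type CD4+CD8- and 7.69 in wild-type CD8 cells (difference 2.71, adjusted p = 0.0513, and 3.12 with an adjusted p of 0.0386 on 9 arrays). The part of these cell types in the results was not tested. Replicate 3 stood apart both in wild-type CD4+CD8- and in Thpok-deficient CD4+CD8+ cells, with an SD over all probe sets of 1.54 and 1.70 against 1.94 to 2.06 on the other 9 arrays. The median olfactory receptor signal was 4.86 and 4.27 on these 2 arrays and 3.30 to 3.78 elsewhere. The counts over the 53 genes, the medians by role and the genes shown in every array are therefore given on all 11 arrays and on the 9 arrays without them, and other values are those of 11 arrays. In 27.9% of probe sets the deposited table repeats 1 value exactly in more than 1 array, which is the case for 4 of the 53 genes.

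The replication genes were lowest in wild-type CD4+CD8- cells. Of the 53 genes, 52 had their lowest group mean there, against 23.6% of all probe sets, and on 9 arrays it was 50 genes against 28.4%. The mean of the 53 log2 signals was 7.15, 7.07 and 6.07 on the wild-type CD4+CD8- arrays, 8.10, 8.06 and 7.64 in Thpok-deficient CD4+CD8- cells, 7.79, 8.08 and 7.50 in Thpok-deficient CD4+CD8+ cells and 8.13 and 7.70 in wild-type CD8 cells. All 3 wild-type CD4+CD8- arrays thus lay below the other 8 arrays, and the 3 other groups overlapped each other. For 30 of the 53 genes every wild-type CD4+CD8- array lay below every other array, against 3.87% of all probe sets. On the 9 arrays this held for 39 genes, against 7.42%. In RNA of sorted bulk cells, fewer cells in S phase and less of these mRNAs per cell cannot be told apart.

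**Figure D1:**
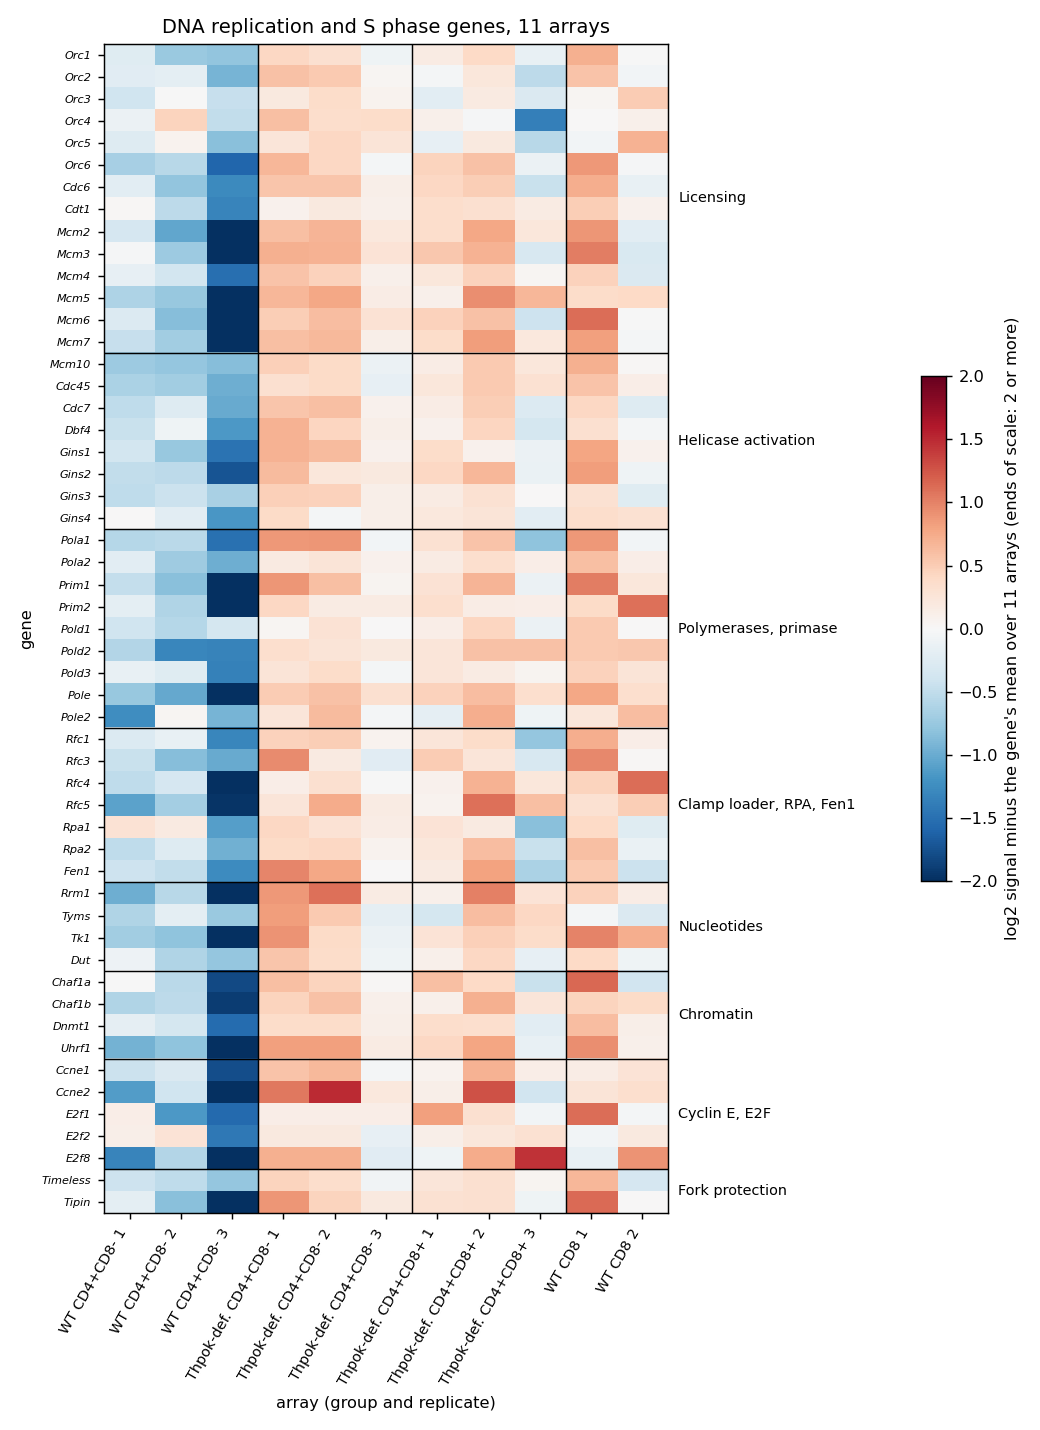
Log2 signal of each of the 53 measured genes on each of the 11 arrays, shown as the difference from the gene's mean over the 11 arrays (colour scale, log2, ends at 2 or more in either direction); rows are genes by role and columns are arrays by group. The wild-type CD4+CD8- columns are mostly blue, deepest for replicate 3, and the columns of the 3 other groups are mostly pale to red, with Orc4, Rpa1 and E2f2 as rows that differ from this.

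Against wild-type CD4+CD8- cells, Thpok-deficient CD4+CD8- cells had the higher mean for all 53 genes (36.5% of all probe sets), with a median log2 difference of 1.08 where all probe sets had -0.15. The arrays of both groups did not overlap for 47 genes, against 10.9% of all probe sets, and 30 genes were higher by at least 1 on the log2 scale, against 2.81%, which on 9 arrays was 17 genes against 1.3%. By limma, with p-values adjusted over all probe sets (Benjamini-Hochberg, threshold 0.05), 0 of the 53 passed, against 0.066% of all probe sets, while 49 had an unadjusted p under 0.05, against 7.39%. On 9 arrays the median was 0.82 (all probe sets -0.03), 47 genes did not overlap (background 13.7%) and 1 gene, Pole, passed (background 0.108%).

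Thpok-deficient CD4+CD8+ cells had the higher mean for 52 of the 53 genes (50.4% of all probe sets), with a median difference of 0.92 (all probe sets 0.00). The arrays did not overlap for 31 genes, against 5.93% of all probe sets. A single gene, Pold2, passed the limma threshold (background 0.138%), and 41 had an unadjusted p under 0.05 (background 5.36%). On 9 arrays the median was 0.82 (all probe sets 0.05), 46 genes did not overlap (background 21.7%), and 1 gene passed (background 0.078%), which was Pole in place of Pold2. Arrays of the same replicate number deviated together in this comparison (correlations of 0.650, 0.429 and 0.724 over probe sets, after removing group means). The value of 0.724 is that of the 2 narrow arrays. Wild-type CD4+CD8- replicate 2 and Thpok-deficient CD4+CD8+ replicate 1 also correlated, at 0.524, so the values do not show that numbers pair arrays. With the replicate number as a block in the fit, 6 genes passed, against 0.336% of all probe sets. These were Pold2, Pole and Rfc5 (each at an adjusted p of 0.0287), Uhrf1 (0.0314), Ccne2 (0.0328) and Cdc45 (0.0427).

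Wild-type CD8 cells likewise had the higher mean for all 53 genes (37.5% of all probe sets), with a median difference of 1.13 (all probe sets -0.14). Non-overlapping arrays were found for 42 genes, against 11.2% of all probe sets. Here too Pold2 alone passed (background 0.3%), and 42 genes had an unadjusted p under 0.05 (background 7.76%). On 9 arrays the median was 0.84 (all probe sets -0.01), 42 genes did not overlap (background 17.1%) and 3 genes passed (background 0.732%), which were Pole (adjusted p = 0.0166), Pold2 (0.03) and Tk1 (0.046). The 3 comparisons use the same wild-type CD4+CD8- arrays, so their likeness is no independent evidence.

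**Figure D2:**
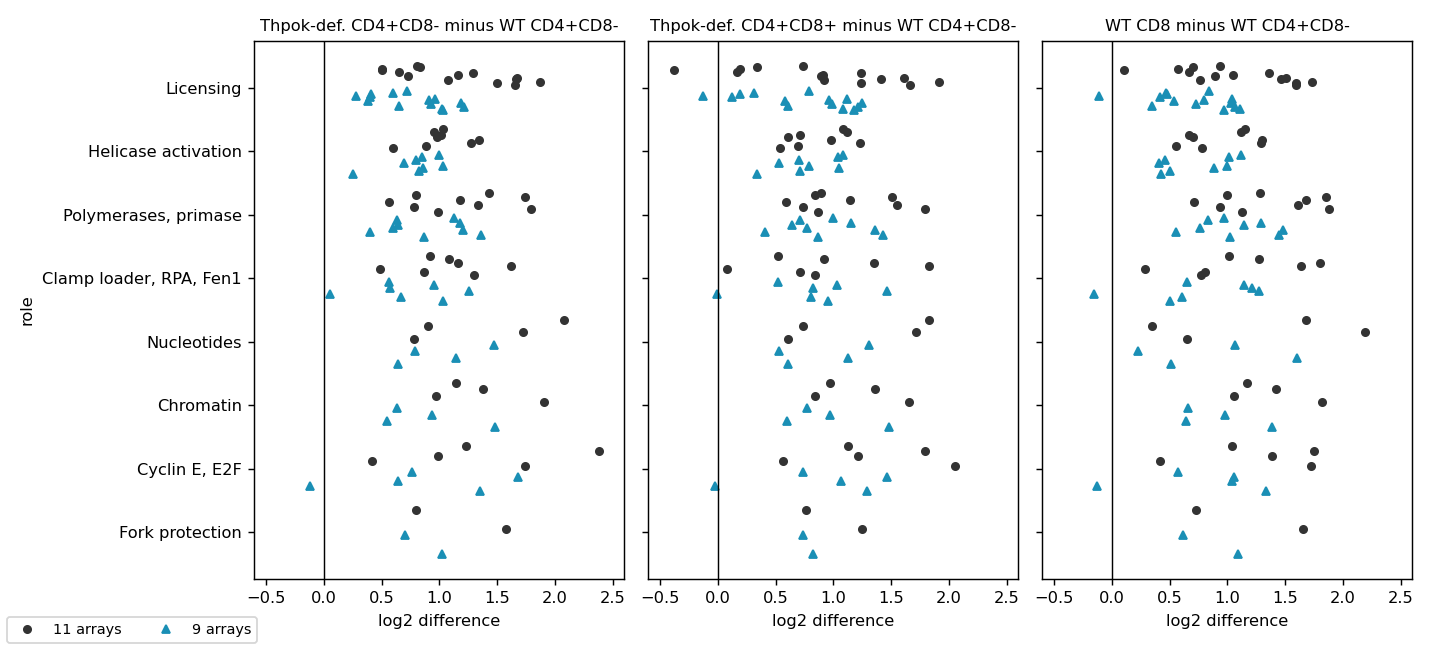
Log2 difference of each of the 53 genes from wild-type CD4+CD8- cells (horizontal axis), by role (vertical axis), in 1 panel per comparison; circles are the fit to 11 arrays and triangles the fit to 9 arrays. Nearly all points lie right of 0, and most triangles lie nearer to 0 than their circles, with medians of 0.82, 0.82 and 0.84 against 1.08, 0.92 and 1.13.

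Below, the 3 differences of a gene from wild-type CD4+CD8- cells are given as log2 values with the SE of the fit, in the order Thpok-deficient CD4+CD8-, Thpok-deficient CD4+CD8+ and wild-type CD8, and adjusted p-values follow the same order. Among the 14 licensing genes, the median differences were 1.11, 0.92 and 0.99 on 11 arrays and 0.81, 0.87 and 0.76 on 9 arrays. None of the 14 passed the adjusted threshold by limma in any of the 3 comparisons (background 0.066%, 0.138% and 0.3%). At an unadjusted p under 0.05, 13, 10 and 10 were higher (background 7.39%, 5.36% and 7.76%). The 6 subunits of the Mcm helicase, Mcm2 to Mcm7, had differences between 0.76 and 1.91, and between 0.35 and 1.25 on 9 arrays. Mcm5, a helicase subunit, read 8.33, 8.18 and 6.28 in wild-type CD4+CD8- cells, 9.60, 9.71 and 9.09 in Thpok-deficient CD4+CD8- cells, 9.05, 9.87 and 9.61 in Thpok-deficient CD4+CD8+ cells and 9.31 and 9.34 in wild-type CD8 cells. Every wild-type CD4+CD8- array was below every other array, with replicate 3 far below its fellows, and the differences were 1.87 ± 0.46, 1.91 ± 0.46 and 1.73 ± 0.52 (adjusted p = 0.163, 0.141 and 0.192), and 1.21, 1.21 and 1.07 on 9 arrays. Mcm2, another subunit, read 8.40, 7.69 and 6.61 in wild-type CD4+CD8- cells, 9.34, 9.41 and 8.94 in Thpok-deficient CD4+CD8- cells, 9.08, 9.50 and 8.96 in Thpok-deficient CD4+CD8+ cells and 9.61 and 8.53 in wild-type CD8 cells. The wild-type CD4+CD8- arrays stayed below the rest, but the highest wild-type CD4+CD8- array came close to the lower wild-type CD8 array. Its differences were 1.67 ± 0.42, 1.61 ± 0.42 and 1.51 ± 0.47 (adjusted p = 0.169, 0.166 and 0.209), and 1.19, 1.25 and 1.03 on 9 arrays.

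The Orc genes encode the origin recognition complex. Orc1, Orc2, Orc3, Orc4 and Orc5 had differences of 0.81, 0.83, 0.50, 0.50 and 0.65 in Thpok-deficient CD4+CD8- cells, of 0.74, 0.34, 0.19, -0.38 and 0.17 in Thpok-deficient CD4+CD8+ cells and of 0.94, 0.70, 0.57, 0.11 and 0.67 in wild-type CD8 cells. In both Thpok-deficient groups all 5 were below the 6 helicase subunits, and in wild-type CD8 cells Orc1 was above Mcm4, as it was in all 3 groups on 9 arrays. Orc6, the subunit least related to the others, had 1.29, 1.24 and 1.36. Orc4 read 6.42, 6.97 and 6.04 in wild-type CD4+CD8- cells, 7.13, 6.89 and 6.90 in Thpok-deficient CD4+CD8- cells, 6.64, 6.50 and 5.17 in Thpok-deficient CD4+CD8+ cells and 6.54 and 6.64 in wild-type CD8 cells. Wild-type CD4+CD8- arrays overlapped with all 3 other groups, and the lowest value was that of Thpok-deficient CD4+CD8+ replicate 3, one of the narrow arrays. Its differences were 0.50 ± 0.36, -0.38 ± 0.36 and 0.11 ± 0.41 (adjusted p = 0.557, 1 and 0.884), and 0.28, -0.13 and -0.11 on 9 arrays. Of the loading factors, Cdc6 had differences of 1.16, 0.91 and 1.05 and Cdt1 of 0.73, 0.89 and 0.89.

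The 8 helicase activation genes had medians of 0.99, 0.84 and 0.95, and of 0.84, 0.75 and 0.69 on 9 arrays. Here 0 of 8 passed by limma, with 7, 6 and 6 higher at an unadjusted p under 0.05 (background 7.39%, 5.36% and 7.76%). Cdc45, which joins the Mcm ring to form the active helicase, read 6.75, 6.68 and 6.41 in wild-type CD4+CD8- cells, 7.71, 7.77 and 7.22 in Thpok-deficient CD4+CD8- cells, 7.61, 7.91 and 7.69 in Thpok-deficient CD4+CD8+ cells and 7.95 and 7.51 in wild-type CD8 cells. All 3 wild-type CD4+CD8- arrays lay close together, the narrow array included, and below every other array. On the narrow array, however, 6.41 was below the 95th percentile of the olfactory receptors (7.38). On replicates 1 and 2 the gene was above that percentile (5.44 and 5.22). Differences were 0.95 ± 0.21, 1.12 ± 0.21 and 1.12 ± 0.24 (adjusted p = 0.133, 0.0768 and 0.0759), and 0.85, 1.04 and 1.01 on 9 arrays. Mcm10, needed for the helicase to unwind origins, read 6.45, 6.41 and 6.33 in wild-type CD4+CD8- cells, 7.66, 7.56 and 7.07 in Thpok-deficient CD4+CD8- cells, 7.33, 7.70 and 7.41 in Thpok-deficient CD4+CD8+ cells and 7.89 and 7.21 in wild-type CD8 cells. Its wild-type CD4+CD8- arrays again differed little from each other and did not overlap with the rest, but replicate 3 was again below that percentile of its own array. Differences were 1.03 ± 0.23, 1.08 ± 0.23 and 1.15 ± 0.25 (adjusted p = 0.133, 0.103 and 0.0828), and 1.00, 1.08 and 1.12 on 9 arrays.

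Of the subunits of the GINS complex, Gins1 had differences of 1.34, 0.98 and 1.30, Gins2 of 1.27, 1.23 and 1.29 and Gins3 of 0.88, 0.69 and 0.56. Gins4, the other subunit, read 8.18, 7.97 and 7.01 in wild-type CD4+CD8- cells, 8.55, 8.13 and 8.29 in Thpok-deficient CD4+CD8- cells, 8.38, 8.44 and 7.96 in Thpok-deficient CD4+CD8+ cells and 8.53 and 8.48 in wild-type CD8 cells. It overlapped between wild-type CD4+CD8- cells and both Thpok-deficient groups, but not with wild-type CD8 cells. The Gins4 differences were 0.60 ± 0.29, 0.54 ± 0.29 and 0.78 ± 0.32 (adjusted p = 0.504, 0.688 and 0.369), and 0.25, 0.34 and 0.43 on 9 arrays. Cdc7, the kinase that triggers origin firing, had differences of 1.01, 0.71 and 0.67, and Dbf4, its activating subunit, of 0.98, 0.61 and 0.70.

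Pold2, the accessory subunit of polymerase delta, was the gene that passed the test on 11 arrays. It read 7.76, 7.03 and 7.0 in wild-type CD4+CD8- cells, 8.67, 8.59 and 8.53 in Thpok-deficient CD4+CD8- cells, 8.58, 8.92 and 8.92 in Thpok-deficient CD4+CD8+ cells and 8.86 and 8.88 in wild-type CD8 cells. The 8 arrays of the other groups fell within 8.53 to 8.92, above all 3 wild-type CD4+CD8- arrays, and replicate 3 was level with replicate 2 there. Replicate 3 was, however, below the 95th percentile of the olfactory receptors on its array (7.38), and replicate 2 above its own (5.22). Pold2 was higher by 1.33 ± 0.22, 1.55 ± 0.22 and 1.61 ± 0.25 (2.52, 2.92 and 3.05-fold), with adjusted p-values of 0.0562, 0.0246 and 0.0197, and it passed the F test over the 4 groups (adjusted p = 0.0381, background 0.246%), which 0 of the 53 genes passed on 9 arrays (background 0.174%), where 26 had an unadjusted p under 0.05 (background 11.2%). The call lay near the threshold. With each of the 11 arrays left out in turn, it was lost 8 times in Thpok-deficient CD4+CD8+ cells (adjusted p from 0.00514 to 0.143) and 3 times in wild-type CD8 cells (0.00553 to 0.155). On 9 arrays the differences were 1.20, 1.36 and 1.48, with adjusted p-values of 0.0911, 0.0871 and 0.03.

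Pole, the catalytic subunit of polymerase epsilon, read 6.82, 6.56 and 5.40 in wild-type CD4+CD8- cells, 8.09, 8.16 and 7.90 in Thpok-deficient CD4+CD8- cells, 8.04, 8.20 and 7.92 in Thpok-deficient CD4+CD8+ cells and 8.36 and 7.92 in wild-type CD8 cells. Its wild-type CD4+CD8- arrays all lay more than 1 below every other array. Differences were 1.79 ± 0.32, 1.79 ± 0.32 and 1.88 ± 0.35 (adjusted p = 0.0669, 0.0639 and 0.0504), and 1.36, 1.43 and 1.45 on 9 arrays, where all 3 passed (adjusted p = 0.0326, 0.049 and 0.0166). Pole2, the second subunit of the same polymerase, read 5.74, 7.02 and 6.04 in wild-type CD4+CD8- cells, 7.22, 7.61 and 6.93 in Thpok-deficient CD4+CD8- cells, 6.80, 7.70 and 6.89 in Thpok-deficient CD4+CD8+ cells and 7.20 and 7.59 in wild-type CD8 cells. Replicate 2 of wild-type CD4+CD8- cells was the high one here and overlapped with both Thpok-deficient groups, but not with wild-type CD8 cells. The differences were 0.99 ± 0.35, 0.87 ± 0.35 and 1.13 ± 0.39 (adjusted p = 0.327, 0.43 and 0.271), and 0.87, 0.87 and 1.02 on 9 arrays.

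Over all 9 polymerase and primase genes, the medians were 1.18, 0.89 and 1.28 (0.87, 0.87 and 1.02 on 9 arrays). By limma, 9, 8 and 9 genes were higher at an unadjusted p under 0.05 (background 7.39%, 5.36% and 7.76%). The catalytic subunit of primase, Prim1, had differences of 1.74, 1.51 and 1.85, and Pola1, the catalytic subunit of polymerase alpha, had 1.43, 0.89 and 1.28. Pold1, the catalytic subunit of polymerase delta, had 0.56, 0.59 and 0.71, the smallest in this role in each comparison. Pold1 was also the single gene of the 53 that read higher on wild-type CD4+CD8- replicate 3 than on replicates 1 and 2 on average, by 0.15.

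**Figure D3:**
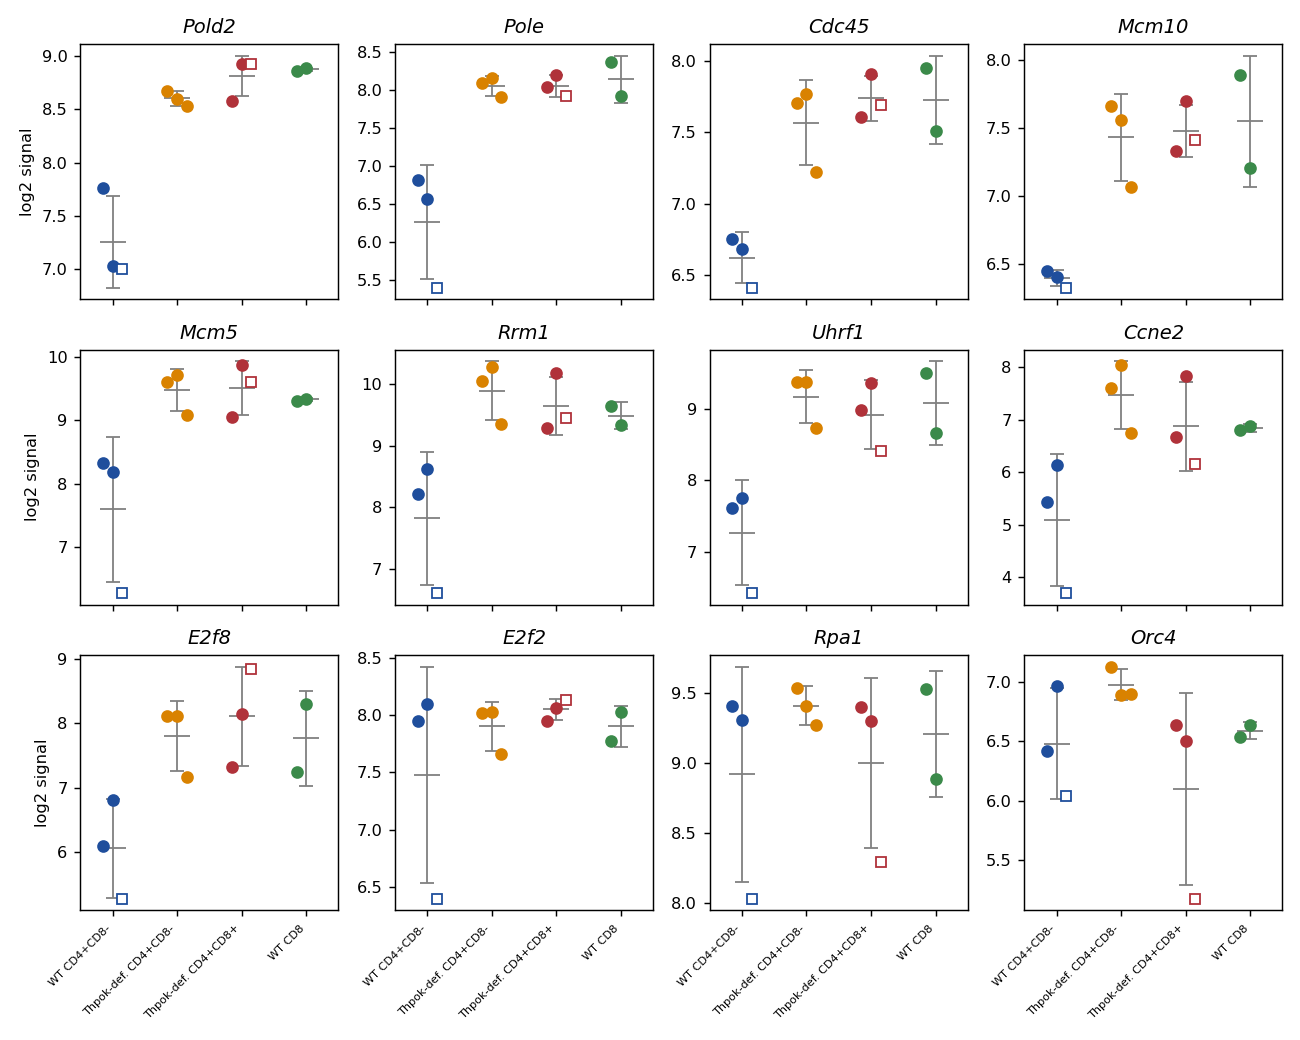
Log2 signal of 12 genes (vertical axis, not starting at 0) on each array by group; filled circles are the 9 arrays, open squares the 2 arrays of narrow range, and grey bars the group mean ± SD (n = 3, and n = 2 for wild-type CD8 cells). In Pold2, Pole, Cdc45, Mcm10, Mcm5, Rrm1, Uhrf1, Ccne2 and E2f8 every wild-type CD4+CD8- point lies below all others, and in E2f2, Rpa1 and Orc4 the groups overlap.

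The 7 measured genes of the clamp loader and lagging strand group had medians of 1.08, 0.84 and 1.01, and 0.67, 0.82 and 0.65 on 9 arrays. None passed by limma on either set of arrays. On 11 arrays, 6, 4 and 5 were higher at an unadjusted p under 0.05 (background 7.39%, 5.36% and 7.76%). Rfc5, a subunit of the clamp loader that puts the sliding clamp on DNA, read 7.78, 8.18 and 6.89 in wild-type CD4+CD8- cells, 9.09, 9.60 and 9.02 in Thpok-deficient CD4+CD8- cells, 8.92, 9.96 and 9.45 in Thpok-deficient CD4+CD8+ cells and 9.16 and 9.34 in wild-type CD8 cells. Wild-type CD4+CD8- arrays did not overlap with the rest, and Thpok-deficient CD4+CD8+ replicate 2 was the highest array. Differences were 1.62 ± 0.35, 1.83 ± 0.35 and 1.64 ± 0.39 (adjusted p = 0.128, 0.0768 and 0.0991), and 1.26, 1.46 and 1.27 on 9 arrays. Rfc4, a further clamp loader subunit, read 6.57, 6.73 and 4.89 in wild-type CD4+CD8- cells, 7.20, 7.39 and 7.07 in Thpok-deficient CD4+CD8- cells, 7.16, 7.77 and 7.29 in Thpok-deficient CD4+CD8+ cells and 7.52 and 8.19 in wild-type CD8 cells. Wild-type CD4+CD8- replicate 3 was far below replicates 1 and 2, and no array of that group reached another group. Differences were 1.16 ± 0.42, 1.35 ± 0.42 and 1.80 ± 0.47 (adjusted p = 0.341, 0.264 and 0.137), and 0.57, 0.82 and 1.21 on 9 arrays.

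Rpa1, the large subunit of the single-strand DNA binding protein RPA, behaved otherwise. It read 9.41, 9.31 and 8.03 in wild-type CD4+CD8- cells, 9.54, 9.41 and 9.27 in Thpok-deficient CD4+CD8- cells, 9.40, 9.30 and 8.29 in Thpok-deficient CD4+CD8+ cells and 9.53 and 8.89 in wild-type CD8 cells. Wild-type CD4+CD8- replicates 1 and 2 lay within the range of the other groups, and the 2 lowest arrays were the 2 of narrow range. Differences were 0.49 ± 0.39, 0.08 ± 0.39 and 0.29 ± 0.44 (adjusted p = 0.557, 1 and 0.736), and 0.05, -0.01 and -0.15 on 9 arrays. Rpa2, its partner, had 0.87, 0.71 and 0.81. Fen1, the nuclease that trims Okazaki fragments, had 1.30, 0.84 and 0.77.

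The 4 measured nucleotide genes had medians of 1.31, 1.22 and 1.16, and of 0.96, 0.87 and 0.79 on 9 arrays. Rrm1, the large subunit of ribonucleotide reductase, which makes deoxyribonucleotides, read 8.22, 8.63 and 6.60 in wild-type CD4+CD8- cells, 10.05, 10.29 and 9.36 in Thpok-deficient CD4+CD8- cells, 9.29, 10.19 and 9.46 in Thpok-deficient CD4+CD8+ cells and 9.65 and 9.34 in wild-type CD8 cells. No wild-type CD4+CD8- array reached the other groups. Differences were 2.08 ± 0.47, 1.83 ± 0.47 and 1.68 ± 0.53 (adjusted p = 0.139, 0.165 and 0.216), and 1.47, 1.31 and 1.07 on 9 arrays. Tk1, the thymidine kinase of the salvage pathway, read 5.73, 5.63 and 3.93 in wild-type CD4+CD8- cells, 7.33, 6.82 and 6.31 in Thpok-deficient CD4+CD8- cells, 6.71, 6.91 and 6.80 in Thpok-deficient CD4+CD8+ cells and 7.42 and 7.15 in wild-type CD8 cells. Its 3 wild-type CD4+CD8- arrays were again the lowest, and just 1 Thpok-deficient array lay above the lower wild-type CD8 array. Differences were 1.72 ± 0.43, 1.71 ± 0.43 and 2.19 ± 0.48 (adjusted p = 0.161, 0.15 and 0.0823), and 1.14, 1.13 and 1.60 on 9 arrays, where the last of them passed.

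Tyms, thymidylate synthase, read 5.41, 5.82 and 5.27 in wild-type CD4+CD8- cells, 6.84, 6.53 and 5.83 in Thpok-deficient CD4+CD8- cells, 5.65, 6.63 and 6.42 in Thpok-deficient CD4+CD8+ cells and 5.97 and 5.72 in wild-type CD8 cells. Wild-type CD4+CD8- arrays overlapped with Thpok-deficient CD4+CD8+ and wild-type CD8 cells, and nearly touched Thpok-deficient CD4+CD8- cells. Differences were 0.90 ± 0.31, 0.74 ± 0.31 and 0.35 ± 0.35 (adjusted p = 0.316, 0.478 and 0.668), and 0.79, 0.53 and 0.23 on 9 arrays. Dut, which removes dUTP, had 0.78, 0.61 and 0.65.

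Chromatin copying genes, 4 in number, had medians of 1.26, 1.16 and 1.29, and of 0.79, 0.87 and 0.82 on 9 arrays. Uhrf1, which brings the maintenance DNA methyltransferase to newly copied DNA, read 7.62, 7.76 and 6.42 in wild-type CD4+CD8- cells, 9.38, 9.38 and 8.73 in Thpok-deficient CD4+CD8- cells, 8.98, 9.36 and 8.41 in Thpok-deficient CD4+CD8+ cells and 9.50 and 8.66 in wild-type CD8 cells. Every wild-type CD4+CD8- array was lower than every other array. Differences were 1.90 ± 0.39, 1.65 ± 0.39 and 1.82 ± 0.44 (adjusted p = 0.115, 0.138 and 0.105), and 1.48, 1.48 and 1.39 on 9 arrays. Dnmt1, the methyltransferase itself, had 0.97, 0.84 and 1.06.

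Chaf1b, a subunit of the chromatin assembly factor CAF-1, read 7.22, 7.30 and 5.93 in wild-type CD4+CD8- cells, 8.26, 8.40 and 7.93 in Thpok-deficient CD4+CD8- cells, 7.92, 8.53 and 8.07 in Thpok-deficient CD4+CD8+ cells and 8.27 and 8.20 in wild-type CD8 cells. No wild-type CD4+CD8- array overlapped with the rest, and the differences were 1.38 ± 0.34, 1.36 ± 0.34 and 1.42 ± 0.38 (adjusted p = 0.159, 0.149 and 0.141), and 0.94, 0.97 and 0.98 on 9 arrays. Chaf1a, the large subunit of the same complex, read 7.45, 6.92 and 5.66 in wild-type CD4+CD8- cells, 8.06, 7.91 and 7.49 in Thpok-deficient CD4+CD8- cells, 8.06, 7.86 and 7.02 in Thpok-deficient CD4+CD8+ cells and 8.61 and 7.08 in wild-type CD8 cells. Here wild-type CD4+CD8- replicate 1 exceeded the lowest array of both CD8-expressing groups. The differences were 1.14 ± 0.50, 0.97 ± 0.50 and 1.17 ± 0.55 (adjusted p = 0.452, 0.648 and 0.469), and 0.63, 0.77 and 0.66 on 9 arrays. Its wild-type CD8 arrays were further apart than in any other of the 53 genes, by 1.54.

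Cyclin E and the E2F factors, which stand upstream of S phase entry, held both the widest and some of the narrowest differences. Ccne2 (cyclin E2) read 5.43, 6.15 and 3.70 in wild-type CD4+CD8- cells, 7.61, 8.04 and 6.76 in Thpok-deficient CD4+CD8- cells, 6.67, 7.83 and 6.16 in Thpok-deficient CD4+CD8+ cells and 6.80 and 6.89 in wild-type CD8 cells. It had the widest range over the 11 arrays of all 53 genes (4.34), and its lowest array outside the wild-type CD4+CD8- group was barely above the highest inside it. Differences were 2.38 ± 0.60, 1.79 ± 0.60 and 1.75 ± 0.67 (adjusted p = 0.169, 0.303 and 0.322), and 1.68, 1.46 and 1.06 on 9 arrays. Ccne1 (cyclin E1) read 7.46, 7.60 and 6.11 in wild-type CD4+CD8- cells, 8.46, 8.54 and 7.85 in Thpok-deficient CD4+CD8- cells, 7.96, 8.58 and 8.02 in Thpok-deficient CD4+CD8+ cells and 8.04 and 8.16 in wild-type CD8 cells. Here too the wild-type CD4+CD8- arrays were the lowest, and the differences were 1.23 ± 0.37, 1.13 ± 0.37 and 1.04 ± 0.41 (adjusted p = 0.236, 0.293 and 0.345), and 0.76, 0.74 and 0.57 on 9 arrays.

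E2f8, a repressor among the E2F factors that is itself made in S phase, read 6.09, 6.81 and 5.27 in wild-type CD4+CD8- cells, 8.11, 8.11 and 7.17 in Thpok-deficient CD4+CD8- cells, 7.32, 8.15 and 8.85 in Thpok-deficient CD4+CD8+ cells and 7.25 and 8.30 in wild-type CD8 cells. All wild-type CD4+CD8- arrays were the lowest, and the highest value came from the narrow array of Thpok-deficient CD4+CD8+ cells. Differences were 1.74 ± 0.49, 2.05 ± 0.49 and 1.72 ± 0.54 (adjusted p = 0.192, 0.138 and 0.219), and 1.35, 1.29 and 1.33 on 9 arrays. E2f1, an activator, read 7.88, 6.60 and 6.19 in wild-type CD4+CD8- cells, 7.88, 7.88 and 7.88 in Thpok-deficient CD4+CD8- cells, 8.56, 8.07 and 7.69 in Thpok-deficient CD4+CD8+ cells and 8.86 and 7.71 in wild-type CD8 cells. The value 7.88 stands with identical digits in 4 arrays, wild-type CD4+CD8- replicate 1 and all 3 Thpok-deficient CD4+CD8- arrays, so the missing spread there is a trait of the deposited values. Wild-type CD4+CD8- arrays overlapped with all other groups, and differences were 0.99 ± 0.43, 1.21 ± 0.43 and 1.39 ± 0.48 (adjusted p = 0.444, 0.325 and 0.261), and 0.64, 1.07 and 1.04 on 9 arrays.

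E2f2, the other measured activator, read 7.95, 8.10 and 6.40 in wild-type CD4+CD8- cells, 8.02, 8.03 and 7.66 in Thpok-deficient CD4+CD8- cells, 7.95, 8.06 and 8.13 in Thpok-deficient CD4+CD8+ cells and 7.77 and 8.03 in wild-type CD8 cells. Apart from the narrow wild-type CD4+CD8- replicate 3, all arrays lay between 7.66 and 8.13. Differences were 0.42 ± 0.37, 0.56 ± 0.37 and 0.42 ± 0.42 (adjusted p = 0.562, 0.865 and 0.668) on 11 arrays and -0.12, -0.02 and -0.13 on 9 arrays.

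The fork protection pair differed in size. Tipin read 6.23, 5.59 and 4.22 in wild-type CD4+CD8- cells, 7.31, 6.86 and 6.62 in Thpok-deficient CD4+CD8- cells, 6.73, 6.74 and 6.33 in Thpok-deficient CD4+CD8+ cells and 7.56 and 6.43 in wild-type CD8 cells. No array of the wild-type CD4+CD8- group reached another group, though its replicate 1 came close to the lowest Thpok-deficient CD4+CD8+ array. Differences were 1.58 ± 0.46, 1.25 ± 0.46 and 1.65 ± 0.51 (adjusted p = 0.218, 0.357 and 0.211), and 1.02, 0.82 and 1.09 on 9 arrays. Timeless, its partner, read 6.55, 6.46 and 6.19 in wild-type CD4+CD8- cells, 7.41, 7.31 and 6.89 in Thpok-deficient CD4+CD8- cells, 7.21, 7.28 and 7.01 in Thpok-deficient CD4+CD8+ cells and 7.63 and 6.63 in wild-type CD8 cells. Its wild-type CD4+CD8- arrays were the lowest as well, and the differences were 0.80 ± 0.26, 0.76 ± 0.26 and 0.73 ± 0.29 (adjusted p = 0.263, 0.306 and 0.345), and 0.70, 0.74 and 0.62 on 9 arrays.

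Between the 3 groups other than wild-type CD4+CD8- cells, the median differences of the replication genes lay near 0. Thpok-deficient CD4+CD8+ minus CD4+CD8- cells gave a median of -0.13 (all probe sets 0.11), with 0 of 53 genes past the limma threshold (background 0%), 1 at an unadjusted p under 0.05 (background 2.03%), and 30 with a 95% confidence interval within 1 of 0. That gene was Orc4 (-0.87, 95% interval -1.67 to -0.07), which rests on the narrow array and was -0.41 on 9 arrays. Thpok-deficient CD4+CD8+ minus wild-type CD8 cells gave -0.12 (all probe sets 0.09), with 0 genes past the limma threshold (background 0.006%), 0 at an unadjusted p under 0.05 (background 2.87%) and 23 such intervals. Thpok-deficient CD4+CD8- minus wild-type CD8 cells gave -0.02 (all probe sets -0.02), again with 0 (background 0.018%) and 0 (background 2.39%), and 26 such intervals. For the remaining genes the interval reached past 1, so a difference of that size cannot be dismissed, and a p that misses the threshold does not show that the groups were alike. Ccne2 was among these, at -0.58, 95% interval -1.90 to 0.74 between the Thpok-deficient groups. The highest of the 4 group means was that of wild-type CD8 cells for 26 genes, of Thpok-deficient CD4+CD8- cells for 21 and of Thpok-deficient CD4+CD8+ cells for 6, against 20.2%, 17.2% and 27.3% of all probe sets. On 9 arrays these counts were 20, 17 and 15, against 23.6%, 14.1% and 33.9%.

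The genes also varied together within groups. On wild-type CD4+CD8- replicate 3, 52 of the 53 genes were below the mean of replicates 1 and 2, with a median of -1.08 where all probe sets had 0.15, and Mcm3 (-2.19), Ccne2 and Mcm5 were the furthest below. Only 3 of the 53 genes exceeded the 95th percentile of the olfactory receptor signals on that array, against 48 and 49 on replicates 1 and 2. Thpok-deficient CD4+CD8+ replicate 3, the other narrow array, was below its fellows for 47 genes (median -0.41, all probe sets 0.14). On it 40 genes were above that percentile, and E2f8 was the gene furthest above its fellows, by 1.12. A shift like this -0.41, but smaller than the -1.08, was seen on an array that does not stand apart. Thpok-deficient CD4+CD8- replicate 3 was below replicates 1 and 2 for 52 genes, with a median of -0.44 (all probe sets -0.01), and the exception was E2f1 at 0. Between the wild-type CD8 arrays, replicate 1 was higher for 40 of 53 genes (median 0.52, all probe sets 0), and E2f8 went furthest the other way, by -1.05. The spread between replicates was therefore largely shared by the genes, and the 53 genes are not 53 independent observations of a group.

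Replication genes outside the set followed in part. Of 70 listed, among them checkpoint, repair and histone supply genes, 61 were measured, with median differences of 0.76, 0.70 and 0.78 (0.60, 0.56 and 0.55 on 9 arrays). At an unadjusted p under 0.05, 39, 30 and 33 were higher (7.39%, 5.36% and 7.76% of all probe sets) and 1, 2 and 2 lower (3%, 3.98% and 3.72%). The furthest below 0 in each comparison was Cdkn1b, an inhibitor of cyclin-dependent kinases, at -0.70, -1.15 and -0.93. The limma threshold was passed by 1, 0 and 2 of the 61 on 11 arrays (background 0.066%, 0.138% and 0.3%). On 9 arrays it was passed by 0, 0 and 3 (background 0.108%, 0.078% and 0.732%). Brca2 passed in wild-type CD8 cells on 9 arrays (0.98, adjusted p = 0.0253) but not on 11 (1.18, adjusted p = 0.0582). Dtl, a part of the ubiquitin ligase that removes Cdt1 in S phase, had 1.49 ± 0.29, 1.51 ± 0.29 and 1.56 ± 0.32 and did not pass on 11 arrays, but on 9 arrays passed in wild-type CD8 cells alone (1.27, adjusted p = 0.0446). Cdk6, a cyclin D kinase, passed in wild-type CD8 cells on 11 arrays (1.88, adjusted p = 0.0462) but not on 9 (1.57, adjusted p = 0.0572). The deoxycytidylate deaminase Dctd passed there on both (1.86, adjusted p = 0.019, and 2.07, adjusted p = 0.0152). Slbp, the histone mRNA binding protein, passed in Thpok-deficient CD4+CD8- cells alone (2.28, adjusted p = 0.0294), at signals of 4.50 to 5.22 against 2.17 to 3.33 on all other arrays, and the call was lost on 9 arrays (2.11, adjusted p = 0.0564). The latter lie below the olfactory receptor median of the same array, and the former below the 95th percentile.

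Genes of mitosis were compared because S phase and mitosis belong to the same cycle. All 28 measured of 30 had the higher mean in each of the 3 groups (36.5%, 50.4% and 37.5% of all probe sets). The medians were 1.50, 1.53 and 1.43, and 0.94, 0.93 and 0.74 on 9 arrays, where 27 were higher in wild-type CD8 cells. None passed by limma (background 0.066%, 0.138% and 0.3%). At an unadjusted p under 0.05, 26, 25 and 17 were higher (background 7.39%, 5.36% and 7.76%). Aurkb, the kinase of the chromosomal passenger complex, had 1.58 ± 0.40, 1.75 ± 0.40 and 1.45 ± 0.45, and Mad2l1, of the spindle checkpoint, had 1.98 ± 0.47, 1.85 ± 0.47 and 1.68 ± 0.52. The mean of the 28 genes was 7.07, 7.97 and 5.71 on the wild-type CD4+CD8- arrays, so replicates 1 and 2 differed by more in mitosis genes than in the 53 replication genes (7.15 and 7.07). On replicate 2, the mitosis mean approached the lowest other array, which read 8.05. Which differences in cell cycle state stand behind these values was not tested.

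**Figure D4:**
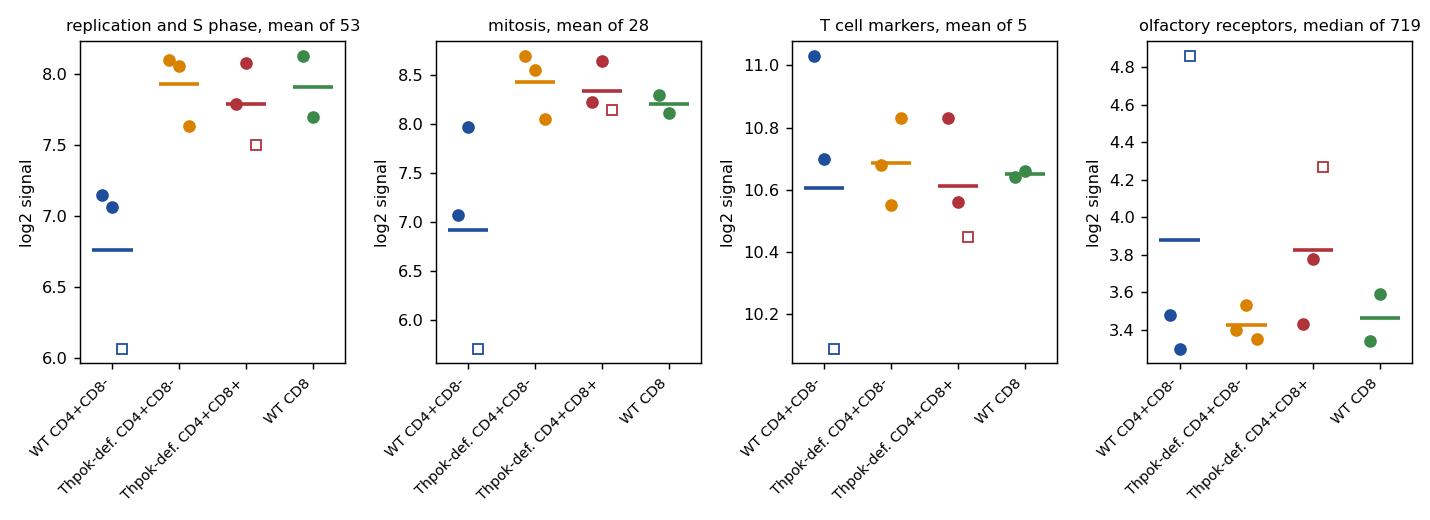
Mean log2 signal of the 53 replication and S phase genes, of 28 mitosis genes and of 5 T cell markers, and the median of 719 olfactory receptor probe sets, per array by group (vertical axes differ and do not start at 0); circles are the 9 arrays, open squares the 2 arrays of narrow range, and lines the group means. Wild-type CD4+CD8- arrays are lowest for the replication genes (6.07 to 7.15) and for mitosis (5.71 to 7.97), and the 2 open squares are highest for the olfactory receptors (4.86 and 4.27).

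Promoter sequences were examined because the genes varied together and because E2F factors are known to bind near the starts of many S phase genes. Windows from 250 bases before to 50 bases after the start (RefSeq, GRCm38.p6) were found for 45 of the 53 genes, and none was used for Mcm4, Gins1, Gins2, Gins4, Prim2, Pole, Ccne2 and Tipin. The letters TTTCCCGC, TTTCGCGC, TTTGCCGC and TTTGGCGC, on either strand and with overlaps counted, stood in the windows of 17 of the 45 genes (37.8%), against 447 of 11877 genes of the array with a window (3.76%). The share was 33.3% for the replication genes outside the set and 4.17% for the mitosis genes. The letters CCAAT, on either strand, stood in 55.6% of the 45 genes and 42.4% of the array's genes. The CHR letters TTTGAA or TTTAAA, known from genes that peak late in the cycle, stood in 33.3% of the 45, in 83.3% of the mitosis genes and in 26.5% of the array's genes. A match of letters is a description and not a binding site, and a window without a match says only that these letters were not in it.

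Within the 45 genes, those with and without the E2F letters did not separate by size of difference. The median differences were 0.99, 0.89 and 1.06 for the 17 with a match, and 1.02, 1.02 and 1.08 for the 28 without. Pold2, Cdc45 and Mcm10 were among those without a match, and E2f2, whose groups overlapped, was among those with one. The windows of 5 genes with a match are shown, one from each of 5 roles, to let the letters be seen in their surroundings. Each is the gene with a match that had the smallest F test p of its role. E2f2, with the largest such p (0.498, unadjusted), was left out. The differences of the 5 genes therefore do not stand for all 17 with a match. Capitals mark the E2F letters, and each window is written 5′ to 3′ on the strand of its gene.
Uhrf1 (chr17:56304063-56304362, plus strand): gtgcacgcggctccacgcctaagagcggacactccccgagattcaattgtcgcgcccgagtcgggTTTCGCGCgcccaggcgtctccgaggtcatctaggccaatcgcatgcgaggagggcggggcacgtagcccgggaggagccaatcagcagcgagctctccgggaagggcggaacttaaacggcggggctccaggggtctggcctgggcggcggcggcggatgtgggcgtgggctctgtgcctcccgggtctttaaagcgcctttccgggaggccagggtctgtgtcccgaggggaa
Mcm5 (chr8:75109259-75109558, plus strand): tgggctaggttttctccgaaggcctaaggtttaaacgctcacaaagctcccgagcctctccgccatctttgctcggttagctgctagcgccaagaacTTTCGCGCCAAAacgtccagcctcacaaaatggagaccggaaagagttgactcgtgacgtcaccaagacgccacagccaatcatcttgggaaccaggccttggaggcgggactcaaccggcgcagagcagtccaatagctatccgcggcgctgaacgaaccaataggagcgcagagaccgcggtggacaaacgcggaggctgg
Gins3 (chr8:95633309-95633608, plus strand): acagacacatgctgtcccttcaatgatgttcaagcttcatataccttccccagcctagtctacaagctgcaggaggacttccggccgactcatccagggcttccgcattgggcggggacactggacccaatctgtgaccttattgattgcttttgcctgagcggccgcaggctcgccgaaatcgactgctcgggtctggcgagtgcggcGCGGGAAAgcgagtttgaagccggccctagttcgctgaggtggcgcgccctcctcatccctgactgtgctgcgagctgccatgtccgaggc
Rfc3 (chr5:151651159-151651458, minus strand): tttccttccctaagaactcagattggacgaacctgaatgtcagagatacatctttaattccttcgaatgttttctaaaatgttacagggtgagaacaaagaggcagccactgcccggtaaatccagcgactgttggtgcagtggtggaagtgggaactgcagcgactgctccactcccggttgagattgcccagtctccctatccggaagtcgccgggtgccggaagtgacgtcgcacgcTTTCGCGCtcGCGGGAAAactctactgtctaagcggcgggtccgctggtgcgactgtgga
Pold1 (chr7:44548766-44549065, minus strand): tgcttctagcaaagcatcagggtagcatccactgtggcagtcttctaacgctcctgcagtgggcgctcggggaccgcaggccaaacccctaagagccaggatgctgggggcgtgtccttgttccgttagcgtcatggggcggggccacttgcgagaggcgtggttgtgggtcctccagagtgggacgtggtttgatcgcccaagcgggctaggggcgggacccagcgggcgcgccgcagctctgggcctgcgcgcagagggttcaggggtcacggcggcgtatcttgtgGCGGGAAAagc
In Uhrf1 the letters begin 185 bases before the start. In Mcm5 a match on each strand overlaps into 1 run, from 153 and 149 bases before it. Gins3 holds its match 41 bases before the start, Rfc3 holds 2 that begin 10 bases before the start and at it, and Pold1 holds one 39 bases after it. Of these genes, Uhrf1 and Mcm5 had differences of 1.65 to 1.91 from wild-type CD4+CD8- cells, and Gins3, Rfc3 and Pold1 of 0.56 to 1.27.

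**Figure D5:**
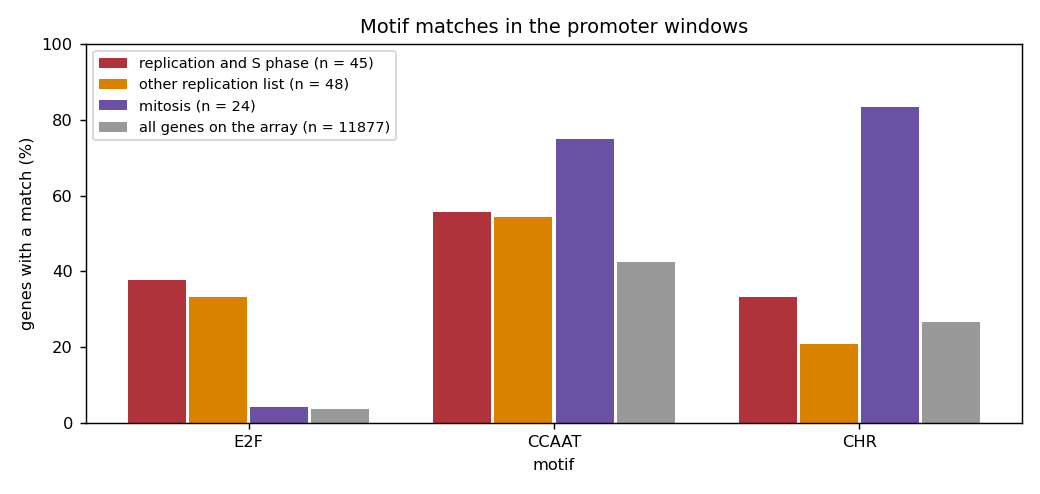
Share of genes (vertical axis, percent) whose promoter window holds the E2F, CCAAT or CHR letters (horizontal axis), for the 45 replication and S phase genes, 48 replication genes outside the set, 24 mitosis genes and all 11877 genes of the array with a window. E2F letters were found in 37.8% and 33.3% of both replication lists and in 4.17% of the mitosis genes, and CHR letters in 83.3% of the mitosis genes.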

How the data were processed

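RNA of 11 samples was measured on 1 array each. The log2 values were deposited after RMA in Partek, with mm9 as the build, per the submitters' processing notes (no versions given). The Affymetrix Mouse Exon 1.0 ST array named in the design text and the 3' labelling kit named in the labels' protocols could not be reconciled. A limma 3.58.1 fit (R 4.3.3) of group means to all 16673 probe sets as deposited, unfiltered, had 7 residual and 3.8 prior degrees of freedom. It gave 6 pairwise differences and an F test, two-sided, adjusted over all probe sets (Benjamini-Hochberg, threshold 0.05), and was repeated on 9 arrays. Precision is limited by the number of arrays, with SEs of 0.2 to 0.67 for the 53 genes. Members and lists were chosen with earlier results of these data known. Genes given in every array are those past the threshold, per role the 2 with the smallest and the 1 with the largest F test p, and all cyclin E and E2F genes. Counts at unadjusted p, overlap counts and the CCAAT and CHR letters were added after seeing the data. Same-number arrays of different groups correlated above 0.1 in 8 of 15 pairs after removing group means, and arrays of other numbers in 9 of 30. All 3 same-number pairs did so for Thpok-deficient CD4+CD8+ with wild-type CD4+CD8- cells alone, and the labels do not pair numbers. The code was tested on simulated data with independent probe sets and no narrow arrays, which checks the code and not the calls reported here. Promoter positions are those of RefSeq (GRCm38.p6), not of mm9.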

Additional observations from a re-analysis of the deposited data

How the results depend on the processing

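The direction of the 3 median differences from wild-type CD4+CD8- cells was kept under every alternative run, but the number of genes passing the limma threshold depended strongly on the setting. In the order Thpok-deficient CD4+CD8-, Thpok-deficient CD4+CD8+, wild-type CD8 and F test, the counts were 0, 1, 1 and 1 of 53 as reported. They were 1, 1, 3 and 0 on 9 arrays. A filter on a mean signal of at least 6, which tests 7567 probe sets and leaves 50 of the genes, gave 2, 4, 4 and 2. A further quantile normalization gave 4 in Thpok-deficient CD4+CD8+ cells, median centring gave 0 there and 0 in the F test, a trended robust prior gave 0 in the F test, and fits to the 2 groups alone gave 0 in Thpok-deficient CD4+CD8+ and 0 in wild-type CD8 cells. With the replicate number as a block, the counts were 24, 6, 2 and 5, although the labels do not say that numbers pair arrays. Of all probe sets, 1.37%, 0.336% and 0.348% passed as higher in the first 3 of these. The share for the F test with the block is not given here, so its count of 5 is not a result about the 53 genes. Array weights by REML gave 47, 49, 21 and 49 and 1 gene between the Thpok-deficient groups, but stopped before convergence with a weight of 51.93 on wild-type CD4+CD8- replicate 1. The gene-by-gene weights, chosen after seeing that, gave 40, 33, 5 and 25, with 4.27 on the same array and 0.09 on replicate 3. The weighted median differences of wild-type CD8 cells were 0.68 and 0.71. For the filter, the normalization, the centring, the prior, the 2-group fits and the weights, the share of all probe sets that passed is not given here. The counts under those settings are therefore not a result about the 53 genes.

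With 1 array left out at a time, the median differences were 0.82 to 1.41, 0.66 to 1.19 and 0.82 to 1.33. The counts were 0 to 2, 0 to 2, 0 to 3 and 0 to 1, with both ends reached by leaving out a wild-type CD4+CD8- array. For these fits too, the share of all probe sets that passed is not given here. No count in this paragraph is therefore a result about the replication genes. In both Thpok-deficient groups the lowest median came from leaving out replicate 3 of the wild-type CD4+CD8- group, and the highest from leaving out its replicate 1. The medians between the 3 other groups took either sign, from -0.28 to 0.01, -0.38 to 0.13 and -0.30 to 0.29, with 0 genes passing.

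Sign changes among the 25 named genes were found for E2f2, Rpa1 and Orc4 alone. On 9 arrays E2f2 was -0.12 in Thpok-deficient CD4+CD8-, -0.02 in Thpok-deficient CD4+CD8+ and -0.13 in wild-type CD8 cells, Rpa1 was -0.01 and -0.15 in the latter 2, and Orc4 was -0.11 in wild-type CD8 cells. With each array left out, E2f2 ran from -0.12 to 0.73, 0.02 to 0.87 and -0.13 to 0.72 in these 3 groups, Rpa1 from -0.36 to 0.43 and -0.15 to 0.61 in the latter 2, and Orc4 from -0.65 to 0.09 and -0.11 to 0.36. The E2f2 values below 0 came without wild-type CD4+CD8- replicate 3. By REML and gene-by-gene weights, E2f2 was -0.04 and -0.03 in Thpok-deficient CD4+CD8- and -0.05 and -0.05 in wild-type CD8 cells, Rpa1 was -0.12 and -0.09 in Thpok-deficient CD4+CD8+ and -0.20 and -0.16 in wild-type CD8 cells, and Orc4 was 0.05 in Thpok-deficient CD4+CD8+ cells by REML. Orc4 was -0.13 in wild-type CD8 cells with the block, and Rpa1 was 0.00 in Thpok-deficient CD4+CD8+ cells after quantile normalization. Beyond the arrays left out, the cause was not tested. Averaging probe sets of a gene gave no other value, since each gene has 1.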
